A study of Homo sapiens with 2 samples.

Results

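A small group of membrane proteins that carry sugar chains at the cell surface was followed across both libraries of the series: the syndecans SDC1, SDC2, SDC3 and SDC4, the glypican GPC1, the chondroitin sulfate carrier CSPG4, and CD44. The genes were taken by name from the table of gene levels, and all 7 had a row among its 15603 genes. The material was A172, an established human glioblastoma cell line. The resistant library came from a single clone labelled A172-r#6, which had been selected by temozolomide (TMZ), an alkylating drug used against glioblastoma, and was labelled as with TMZ. The parental library came from A172 cells labelled as without TMZ. With 1 library per group there was no replicate spread and no test, and clone, selection and drug exposure cannot be told apart.

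Proteoglycans are proteins to which long, negatively charged sugar chains are attached. Syndecans span the membrane and glypicans are held in it by a lipid anchor, and the heparan sulfate chains of both bind growth factors, chemokines and matrix proteins and present them to their receptors. CSPG4, also called NG2, carries chondroitin sulfate and is known as a marker of oligodendrocyte precursors and pericytes. CD44 is the main receptor for hyaluronan, a matrix sugar that is abundant in brain, and some of its splice forms carry sulfated chains themselves. In glioblastoma, CD44 is widely used as a marker of the mesenchymal state.

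Levels are given in FPKM, which count sequenced fragments per length of transcript and scale them for depth, and can be compared between genes per length. The sum over all genes was 323932 FPKM in the resistant and 299594 FPKM in the parental library, and the depth behind these values is unknown. A fold is log2 of (resistant FPKM + 1) over (parental FPKM + 1), so a positive value means higher in the resistant library. A gene was called higher or lower when this fold was at least 2-fold in size, and the 13937 genes that reached 1 FPKM in at least 1 library were considered. The table was built from bulk RNA, so fewer cells with a transcript and less of it per cell cannot be told apart.

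SDC4 was the only member called, CD44 and SDC2 lay just under the threshold on opposite sides, and the remaining 4 genes differed less. Thus 1 of 7 members was called higher, where 4.59% of all genes considered were, and 0 of 7 were called lower, where 3.82% were (8.41% in either direction). The summed level of the 7 genes was 415 FPKM in the resistant and 411 FPKM in the parental library, so the group differed in its make-up far more than in its total. These totals depend on how the libraries are scaled to each other, and the FPKM sum over all genes was larger in the resistant library. In the resistant library CD44 was the most abundant of the 7, followed by GPC1, SDC1, SDC2, SDC4, CSPG4 and SDC3. In the parental library the order was GPC1, CD44, SDC2, SDC1, CSPG4, SDC4 and SDC3. Neighbours in these orders have no spread against which to judge them.

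**Figure D1:**
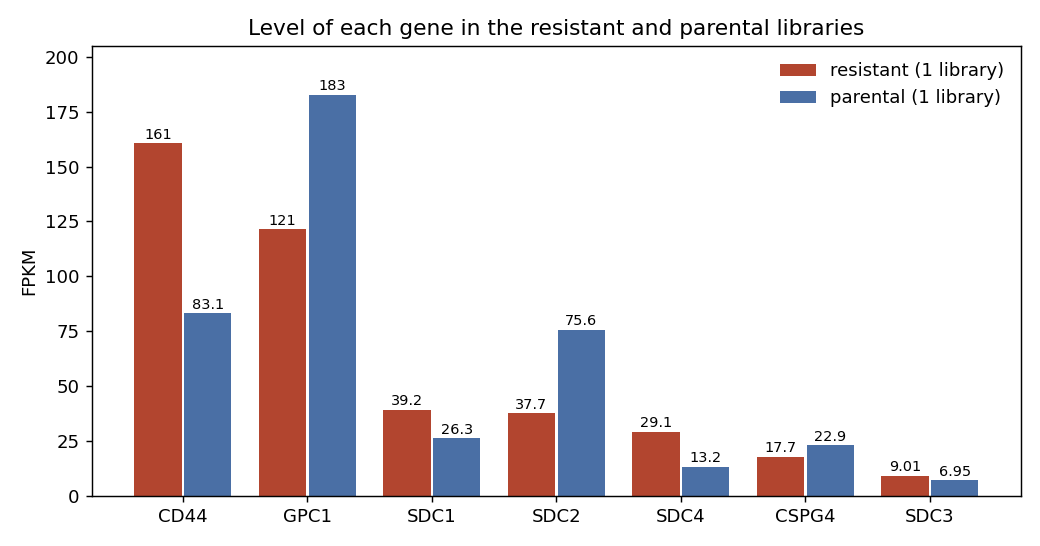
Level of each of the 7 genes in FPKM on a linear axis, with 1 bar per library, resistant left of parental, ordered by the resistant level. CD44 stands at 161 FPKM in the resistant library against 83.1 in the parental one, and GPC1 at 121 FPKM in the resistant library against 183 in the parental one.

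Among the syndecans, SDC4, which clusters at focal adhesions and binds protein kinase C alpha through its cytoplasmic tail, had 29.1 FPKM in the resistant and 13.2 FPKM in the parental library. Its log2 fold was 1.09, and 3.64% of the genes considered had a higher one. The gene (ENSG00000124145) lies on chromosome 20 from 45325288 to 45348424 on the minus strand of GRCh38, with 1 annotated transcript of 594 coding bases. The call did not hold with a pseudocount of 5, where the log2 fold was 0.91. Its q-value in the authors' deposited table was 0.0931.

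SDC4 is shown by the 250 bases before its RefSeq start because it had the highest fold of the 7, and GPC1 beside it because it was the most abundant member with a negative fold. Both are from RefSeq on GRCh38.p14, read 5′ to 3′ on the gene's own strand, chr20:45348425-45348674 on the minus strand for SDC4 and chr2:240435413-240435662 on the plus strand for GPC1. Capitals mark matches, on either strand, to GGGCGG (GC box), TATAA (TATA core) and GGGNNNTTCC (NF-kB), and some of these overlap.
SDC4: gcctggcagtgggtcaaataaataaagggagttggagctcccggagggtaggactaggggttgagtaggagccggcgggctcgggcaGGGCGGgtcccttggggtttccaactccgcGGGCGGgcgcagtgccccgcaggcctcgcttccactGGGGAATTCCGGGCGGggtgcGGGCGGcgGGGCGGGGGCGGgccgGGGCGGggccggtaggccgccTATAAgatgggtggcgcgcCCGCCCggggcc
GPC1: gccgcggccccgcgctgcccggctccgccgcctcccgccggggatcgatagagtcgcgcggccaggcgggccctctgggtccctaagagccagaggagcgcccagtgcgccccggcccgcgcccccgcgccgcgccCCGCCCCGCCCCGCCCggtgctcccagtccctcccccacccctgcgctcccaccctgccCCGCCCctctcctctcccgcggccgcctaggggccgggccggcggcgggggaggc
The SDC4 window held 8 GC boxes, 1 TATA core and 1 NF-kB match, and the GPC1 window 4 GC boxes and neither of the others. Over 35116 RefSeq promoter windows of this length, 42.6% held a GC box, 18.9% a TATA core and 5.67% an NF-kB match. The letters TGANTCA (AP-1), GGAATG (TEAD) and CACGTG (E-box) were in neither window, and 6.57%, 11.9% and 6.34% of all windows held them. G and C made up 73.6% of the SDC4 window and 84% of the GPC1 window, where the median window had 58%. Among the windows of other members, that of CSPG4 (log2 fold -0.36) and 1 of those of SDC1 also held an NF-kB match. Those of CD44 (0.94) and SDC3 held none, and no window of SDC2, the member with the most negative fold, was read. Among the windows read, the NF-kB match thus did not go with the sign of the fold. A match is a run of letters and not a measured binding site.

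SDC2, a syndecan typical of fibroblasts and other mesenchymal cells, went the other way. It had 37.7 FPKM in the resistant and 75.6 FPKM in the parental library, a log2 fold of -0.99, and 3.96% of the genes considered had a lower one. The gene (ENSG00000169439) lies on chromosome 8 from 96493351 to 96611780. It missed the 2-fold threshold with the pseudocount of 1 and passed it by the plain FPKM ratio, at -1.01, and under 4 other settings given with the processing alternatives. SDC2 had a q-value of 0.0123 in the authors' deposited table, below 0.05 although its fold was smaller in size than that of SDC4.

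SDC1, the syndecan best known from epithelial and plasma cells, had 39.2 FPKM in the resistant and 26.3 FPKM in the parental library (log2 fold 0.56). SDC3, the syndecan best known from neurons, was the least abundant member in both, with 9.01 FPKM in the resistant and 6.95 FPKM in the parental library (0.33). Neither was called, and 15.5% and 28.0% of the genes considered had a higher fold than SDC1 and SDC3. SDC1 (ENSG00000115884) lies on chromosome 2 from 20200797 to 20225433 and SDC3 (ENSG00000162512) on chromosome 1 from 30869467 to 30908761. SDC1 and SDC3 had q-values of 0.283 and 0.663 in the authors' deposited table.

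The family therefore had a different composition in each library at nearly the same total. The 4 syndecans summed to 115 FPKM in the resistant and 122 FPKM in the parental library. SDC2 made up 32.8% of that sum in the resistant library, against 62.0% in the parental one. SDC1 and SDC4 together made up 59.4% in the resistant and 32.3% in the parental library. For each SDC2 unit of FPKM there were 0.774 units of SDC4 in the resistant and 0.174 in the parental library, and the units of SDC1 were 1.04 in the resistant and 0.347 in the parental library. These shares and ratios are taken within a library and do not depend on how the libraries are scaled to each other, whereas the sums of 115 and 122 FPKM do.

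**Figure D2:**
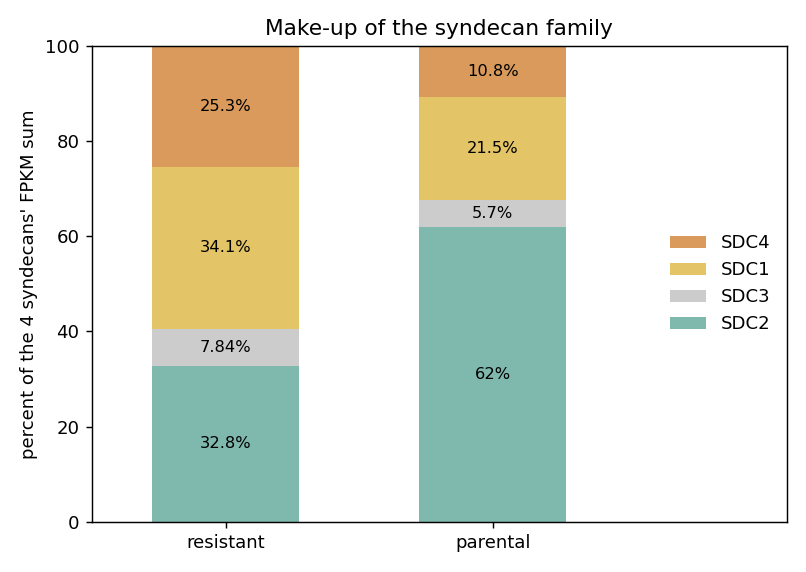
Share of each syndecan in the summed FPKM of the 4 genes, in percent, for the resistant library on the left and the parental library on the right. SDC2 takes 32.8% of the resistant column and 62.0% of the parental one, and SDC4 takes 25.3% of the resistant and 10.8% of the parental column.

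GPC1, the glypican that binds FGF2 and VEGF through its heparan sulfate chains, had 121 FPKM in the resistant and 183 FPKM in the parental library (log2 fold -0.58). Even so it stood at percentile 97.7 of all genes in the resistant and 98.96 in the parental library. It lies on chromosome 2 (ENSG00000063660, 240435671 to 240468078), on the other arm from SDC1. The heparan sulfate carriers among the members, the 4 syndecans and GPC1, summed to 236 FPKM in the resistant and 305 FPKM in the parental library, and most of that gap was in GPC1. The q-value of GPC1 in the authors' deposited table was 0.231.

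CSPG4 had 17.7 FPKM in the resistant and 22.9 FPKM in the parental library (log2 fold -0.36), and 21.9% of the genes considered had a lower fold. The gene (ENSG00000173546) lies on chromosome 15 from 75674322 to 75712848, with 1 annotated transcript of 6966 coding bases. Similar copies of it lie on the same chromosome, and how reads were divided among them is not known. The copies CSPG4P5, CSPG4P10, CSPG4P11 and CSPG4P12 had from 0.696 to 1.01 FPKM in the resistant and from 0.751 to 1.59 FPKM in the parental library, well under CSPG4 itself. CSPG4 had a q-value of 0.650 in the authors' deposited table.

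CD44 was higher in the resistant library, at 161 FPKM against 83.1 FPKM in the parental one, a log2 fold of 0.94 that stayed under the threshold. Of the genes considered, 5.45% had a higher fold. CD44 stood at percentile 98.5 of all genes in the resistant and 96.6 in the parental library. For each GPC1 unit of FPKM there were 1.32 units of CD44 in the resistant and 0.455 in the parental library, which exchanged the first and second place among the members. In the authors' deposited table CD44 had the lowest q-value of the 7, 0.00382, and with SDC2 it was 1 of 2 members under 0.05, where 9.11% of all genes in that table were. Such a q-value compares 2 libraries and not the conditions. CD44 (ENSG00000026508) lies on chromosome 11 from 35138870 to 35232402, with 39 annotated transcripts, 26 of them protein-coding. The table gives 1 value per gene, so the short standard form and the forms with variable exons are summed in it.

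**Figure D3:**
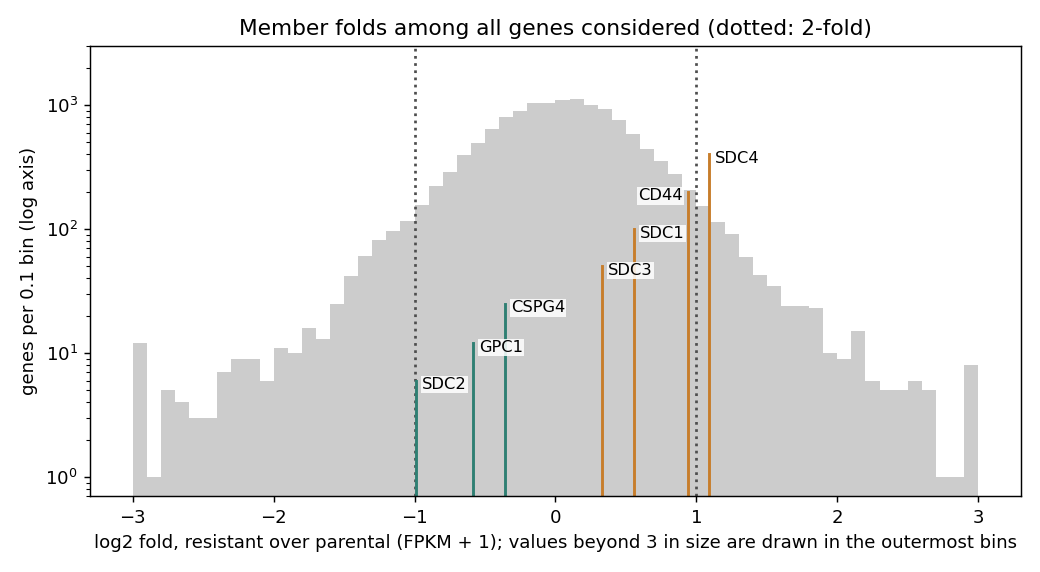
Log2 folds of the 7 genes as vertical lines over the distribution of all 13937 genes considered, in bins of 0.1 with a logarithmic count axis; lines are orange for positive and green for negative folds, line height only separates the labels, and dotted lines mark 2-fold. SDC4 at 1.09 and CD44 at 0.94 lie on the right shoulder, and SDC2 at -0.99 on the left one.

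Genes beside the members on the chromosome were compared because a clone can gain or lose chromosome segments. Over the 10 considered genes on each side, the median log2 fold was 0.18 around SDC4, 0.15 around CD44, 0.02 around SDC1 and -0.08 around SDC3. It was 0.16 around CSPG4, 0.27 around GPC1 and 0.02 around SDC2, beside 0.04 over all genes considered. For every member but SDC4, this median moved by 0.1 or more under some window, scaling, pseudocount or filter tried. Around CD44 the median was 0.53 with 5 genes on each side (9 of 10 positive), 0.15 with 10 (15 of 20 positive) and 0.08 with 20 (25 of 40 positive), and after rescaling to TPM it was 0.04 with 10. Around CSPG4 it was -0.08 with 20 genes on each side, 17 of 40 positive. Around SDC2 it was -0.09 with 10 genes after rescaling to TPM and -0.06 after upper quartile scaling. Around SDC1 it was 0.15 with 5 genes on each side and -0.09 with 10 after rescaling to TPM. With 10 genes it was -0.198 around SDC3 after rescaling to TPM and 0.11 around GPC1 with a pseudocount of 5. FJX1, whose fly relative acts in planar cell polarity and which is the next considered gene after CD44, had 22.7 FPKM in the resistant and 11.5 FPKM in the parental library, and was picked out after its values were seen. Copy number was not measured, and its part in these levels was not tested.

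**Figure D4:**
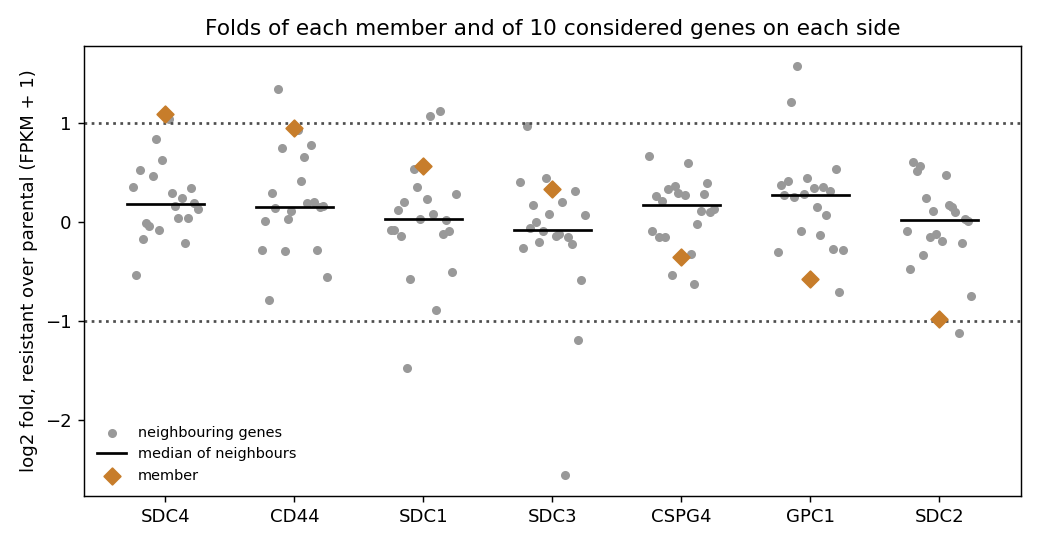
Log2 fold of each member (diamond), of the 10 considered genes on each side of it (grey points, in chromosome order) and their median (black line), with dotted lines at 2-fold. GPC1 and SDC2 lie below the medians of their neighbours, 0.27 and 0.02, and SDC4 and CD44 lie above theirs, 0.18 and 0.15.

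Related genes were read from 10 lists with 167 distinct genes, of which 117 were considered. Among these, 14 were called higher (11.97%) and 4 lower (3.42%), with a median log2 fold of 0.09, beside 4.59%, 3.82% and 0.04 over all genes considered. Counts for each list below are to be read beside the same shares. The lists were drawn up with some of the largest folds already known, MET, MMP3 and HAPLN1 among them, so these counts are a description. Of the 18 calls, 9 were lost with a pseudocount of 5 (CHST15, DSEL, CEMIP2, TGFBR3, FN1, TIAM1, ESRP1, HBEGF and PDGFA), and 3 of these (TGFBR3, FN1 and HBEGF) also with upper quartile scaling.

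None of 10 considered genes for the linkage region and polymerisation of heparan sulfate was called (median log2 fold 0.15), and 1 further gene of the list was not analysed here. EXTL3, which starts the chain, had 12.6 FPKM in the resistant and 19.4 FPKM in the parental library, and the related EXTL2 had 5.45 FPKM resistant and 8.66 FPKM parental. None of 10 considered modification genes was called either (median -0.01), and 9 further genes of that list were not analysed here. Nearest to the threshold was NDST1, which replaces acetyl with sulfate groups along the chain, at 102 FPKM in the resistant and 52.6 FPKM in the parental library (0.95). HS3ST3B1, a 3-O-sulfotransferase whose sequence is close enough to that of HS3ST3A1 for reads to be shared, had 14.0 FPKM in the resistant and 6.78 FPKM in the parental library (0.94), and passed 2-fold by the plain ratio and with a pseudocount of 0.1.

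Of 15 genes for chondroitin and dermatan sulfate, 1 was called higher and 1 lower (median -0.04). DSEL, an epimerase that turns chondroitin into dermatan sulfate, had 7.997 FPKM in the resistant and 2.13 FPKM in the parental library (1.52). CHST15, which adds a further sulfate to chondroitin sulfate, had 1.07 FPKM in the resistant and 3.61 FPKM in the parental library (-1.16). The polymerising enzyme CHSY1 differed little, at 16.4 FPKM resistant and 16.9 FPKM parental.

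Of other glypicans and part-time or facultative proteoglycans of the surface, 2 of 7 were called higher and 0 lower (median 0.55, and 0.26 with a pseudocount of 5). The shares over all genes considered were 4.59% and 3.82%. SLC3A2, NRP1 and NRP2 were among the 7, so the median is not one of proteoglycans in the strict sense. GPC6, a further glypican, had 15.3 FPKM in the resistant and 4.92 FPKM in the parental library (1.46), opposite in sign to GPC1 and far below it in level in both libraries. TGFBR3, betaglycan, which binds TGF-beta, had 2.002 FPKM in the resistant and 0.481 FPKM in the parental library (1.02). That call was lost with a pseudocount of 5 (0.35), upper quartile scaling (0.975) and centring (0.977), and the gene did not reach the 5 FPKM filter. Of the secreted and matrix proteins, beside the same shares over all genes considered, 2 of 10 were called higher and 0 lower (median 0.69). These were not proteoglycans in the strict sense but ligands placed in the same list, SPP1 (osteopontin, a ligand of CD44) at 7.58 FPKM in the resistant and 1.21 FPKM in the parental library, and fibronectin FN1, bound by syndecans, at 10.3 FPKM resistant and 4.45 FPKM parental. The basement membrane proteoglycans agrin (AGRN), at 78.8 FPKM resistant and 51.9 FPKM parental, and perlecan (HSPG2), at 12.8 FPKM resistant and 9.71 FPKM parental, were not called.

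Of 17 hyaluronan genes looked for, 7 were considered, 2 of them were called lower and 0 higher, where 3.82% and 4.59% of all genes considered were (median -0.46, and -0.25 with a pseudocount of 5). The folds were negative for 5 of the 7 and positive for CEMIP and HAPLN3. The link protein HAPLN1, which ties hyaluronan to proteoglycans, had 0.0392 FPKM in the resistant and 26.1 FPKM in the parental library (-4.71). CEMIP2 (listed as TMEM2), a surface protein linked to hyaluronan breakdown, had 9.31 FPKM in the resistant and 20.2 FPKM in the parental library (-1.04), a call lost with a pseudocount of 5 (-0.82). CEMIP, which also takes part in hyaluronan breakdown, had 69.6 FPKM resistant and 42.3 FPKM parental (0.71). Of the synthases, only HAS3 was measured here, at 0.650 FPKM resistant and 0.358 FPKM parental, below the level required for a gene to be considered.

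Among proteases that release these ectodomains, and their inhibitors, 2 of 16 were called higher and 0 lower (median -0.04). Over all genes considered, 4.59% were called higher and 3.82% lower. The sheddases best known for CD44 and the syndecans had near-equal levels: ADAM10 had 36.3 FPKM in the resistant and 41.7 FPKM in the parental library, ADAM17 39.1 FPKM resistant and 38.8 FPKM parental, and MMP14 38.1 FPKM resistant and 37.4 FPKM parental. MMP3 had 9.39 FPKM in the resistant and 0.146 FPKM in the parental library (3.18). TIMP3, an inhibitor of ADAM17 and several other metalloproteases, had 34.5 FPKM resistant and 11.8 FPKM parental (1.48).

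Of 16 cytoplasmic partners, 2 were called higher and 1 lower (median 0.24). Ezrin, EZR, which ties the CD44 tail to actin, had 147 FPKM in the resistant and 42.2 FPKM in the parental library (1.78). Its relatives moesin (MSN, 127 FPKM resistant and 142 FPKM parental) and radixin (RDX, 18.3 FPKM resistant and 16.2 FPKM parental) were not called. TIAM1, a Rac activator that binds syndecan and CD44 tails, had 8.70 FPKM in the resistant and 3.49 FPKM in the parental library (1.11), and ankyrin ANK3 had 6.68 FPKM resistant and 20.5 FPKM parental (-1.48). Syntenin, SDCBP, the PDZ protein that binds all 4 syndecan tails, had 192 FPKM resistant and 137 FPKM parental (0.48) and was not called.

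Of 9 regulators linked to CD44 exon choice, ESRP1 alone was called, higher, and the median was 0.08. ESRP1, which favours inclusion of the CD44 variable exons, had 2.25 FPKM in the resistant and 0.515 FPKM in the parental library (1.10). Its relative ESRP2 was at 0.153 FPKM resistant and 0.613 FPKM parental. Of 17 ligands and receptors that use heparan sulfate or CD44 as a partner, 4 were called higher and 0 lower (median -0.06). Over all genes considered the shares were 4.59% higher and 3.82% lower, and MET was known when the list was drawn up. MET, for which CD44 variant forms act as a co-receptor, had 74.6 FPKM in the resistant and 9.38 FPKM in the parental library (2.86). The heparin-binding factors PDGFA (15.0 FPKM resistant and 5.29 FPKM parental), VEGFA (87.3 FPKM resistant and 38.6 FPKM parental) and HBEGF (7.57 FPKM resistant and 3.12 FPKM parental) were also called higher. FGFR1, an FGF receptor that needs heparan sulfate, had 31.0 FPKM in the resistant and 59.7 FPKM in the parental library (-0.93) and was not called. Its fold was the most negative among the 17. In this list 1 gene was called lower after rescaling to TPM, and 1 after upper quartile scaling.

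**Figure D5:**
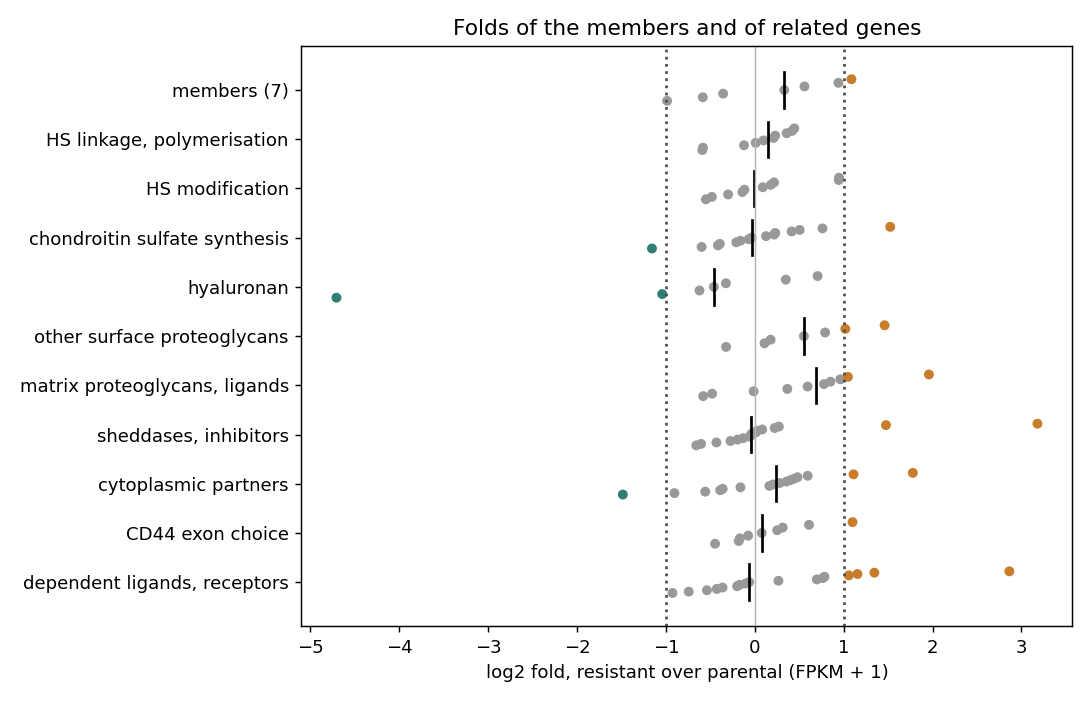
Log2 folds of the 7 members and of each related list, 1 point per considered gene, with the list median as a black line, dotted lines at 2-fold, orange points called higher, green ones called lower, and HS for heparan sulfate. HAPLN1 at -4.71 lies farthest left and MMP3 at 3.18 farthest right.

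Cell type markers were read beside these levels. Of the glioma and astrocyte markers, VIM, at 804 FPKM in the resistant and 632 FPKM in the parental library, and CLU, at 53.3 FPKM resistant and 101 FPKM parental, were measured here, and GFAP, S100B, AQP4, SLC1A3, FABP7 and ALDH1L1 were not analysed here. The 6 measured epithelial genes summed to 1619 FPKM in the resistant and 616 FPKM in the parental library, nearly all of it KRT8, at 905 FPKM resistant and 213 FPKM parental, and KRT18, at 702 FPKM resistant and 392 FPKM parental. Of 5 considered, 2 were called higher (KRT8 and ESRP1) and 0 lower, where 4.59% and 3.82% of all genes considered were. KRT19 had 0.627 FPKM resistant and 1.47 FPKM parental, CLDN4 had 7.60 FPKM resistant and 8.402 FPKM parental, and EPCAM stood at 0.669 FPKM resistant and 0.797 FPKM parental. The pericyte list, whose cells are known for CSPG4, had 1 of 5 higher and 1 lower and summed to 53.8 FPKM resistant and 94.5 FPKM parental, and the oligodendrocyte precursor list had 0 of 2 called and summed to 5.54 FPKM resistant and 5.73 FPKM parental. The pericyte calls were ACTA2, higher (log2 fold 1.70), and RGS5, lower (-3.22). The measured myeloid and lymphoid genes summed to 0.919 FPKM resistant and 2.52 FPKM parental and the endothelial ones to 1.73 FPKM resistant and 11.0 FPKM parental. Nearly all of the endothelial sum was TEK, at 1.56 FPKM resistant and 9.53 FPKM parental (-2.04). TEK was the only endothelial gene considered and was called lower. None of the measured markers was at 0. Every gene with a row reached at least 0.54 FPKM in 1 or both libraries, so this says little about their expression. The part of these marker genes in the members' levels was not tested.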

How the data were processed

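RNA of 2 cultures was sequenced after a stranded mRNA library preparation, per the labels' protocols. The aligner, the quantification tool and the genome build were not given in the sources used here. Deposited by the authors were FPKM per gene and library, a log2 score of resistant over parental FPKM, and p-values and q-values of a comparison whose test is not stated, per the file headers. The score equalled the log2 FPKM ratio within 0.001 in all 15310 genes above 0 in both libraries. All 7 member loci equalled those of GENCODE 29 (GRCh38) once starts were counted from 1, so its coordinates and transcripts were used.

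Depth is unknown. Low values of single-exon genes were scaled by gene length and compared with whole multiples of the step that matched best. At a tolerance of 0.1, 33.3% of 78 resistant values and 31.8% of 85 parental values matched. A chance share of 20% holds only for a step fixed in advance, and none was worked out for a best step. These percentages therefore cannot be judged against chance, and no fragment counts were recovered. Folds, calls, list medians and neighbour medians were computed with Python 3.11.15, numpy 2.4.6 and pandas 2.3.3. The code of the calling rule was run on simulated data with planted 4-fold changes in genes of 5 FPKM or more and an assumed noise. That run does not show how the rule performs near 2-fold, where SDC4, SDC2 and CD44 lie. Tried instead were pseudocounts of 0.1 and 5 and the plain ratio, rescaling to TPM, upper quartile scaling, centring on the median, no filter or 5 FPKM, rules of 1.5-fold and 4-fold, and 5 or 20 neighbours on each side. Of 212 genes looked for, 155 had a row. Members and lists were chosen with earlier results of these data known. Named were all members and, from each list, the genes called or otherwise the largest in size (at most 6); other list genes named here were chosen after their values were seen.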

Additional observations from a re-analysis of the deposited data

How the results depend on the processing

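All 7 members kept the sign of their fold under every scaling and pseudocount tried. A pseudocount or the plain ratio cannot change a sign, so only the scalings could have done so. Rescaling to TPM, upper quartile scaling and centring moved the median fold by -0.10, -0.08 and -0.04. The smallest member fold was 0.33 (SDC3), so a kept sign says little about robustness. SDC4 fell short of 2-fold with a pseudocount of 5 (log2 fold 0.91). SDC2 passed it at -1.004 with a pseudocount of 0.1, -1.01 by the plain ratio, -1.11 after rescaling to TPM, -1.07 after upper quartile scaling and -1.03 after centring. So 1 member was called lower under these 5 settings, and 1 (SDC2) with the 1.5-fold rule. Members called higher numbered 0 with a pseudocount of 5, 2 (SDC4 and CD44) with the 1.5-fold rule and 0 with the 4-fold rule. Over all genes, 1076 were higher and 1029 lower with a pseudocount of 0.1, 220 and 114 with a pseudocount of 5, 1118 and 1025 by the plain ratio, 2020 and 1674 at 1.5-fold, and 61 and 59 at 4-fold. Rescaling to TPM moved the median of all folds by -0.10 and gave 790 higher and 1076 lower genes, where the FPKM gave 640 and 532. The pseudocount stayed at 1 on the larger TPM values and so weighed less. These counts therefore do not reflect the scaling between libraries alone. With a filter of 5 FPKM, 282 were lower. List counts stayed within 1.5 times in 136 of 160 cases, and list medians within 0.1 in 63 of 80 cases. Many of the list counts were 0, and a count that stayed at 0 was scored as within 1.5 times. Dropping the filter could not change a count, because genes under 1 FPKM in both libraries cannot reach 2-fold with a pseudocount of 1. The share of 136 of 160 therefore overstates how stable the calls were. No paired analysis was possible because each group held 1 library. Depth is unknown and limits the low values most.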

Other observations

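The genes whose levels were nearest to those of a member were found by distance in log2(FPKM + 1) over the 2 libraries, which says only that both levels are alike. The nearest to SDC4 was PVR, a poliovirus receptor and nectin-like adhesion protein, at 28.98 FPKM in the resistant and 12.9 FPKM in the parental library (distance 0.03). The nearest to SDC2 was GALNT2, which starts mucin-type sugar chains, at 36.1 FPKM resistant and 72.6 FPKM parental (0.08). The nearest to SDC1 was PERP, a desmosome-associated protein, at 39.0 FPKM resistant and 26.1 FPKM parental (0.01). CD44 had no neighbour as close, with the ribosomal protein RPS18 nearest at 150 FPKM in the resistant and 82.9 FPKM in the parental library (0.10).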
